A study of Mus musculus with 4 samples.

Results

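Olfactory receptor genes form the largest gene family of the mouse and sit in long tandem arrays. Each olfactory sensory neuron of the nose transcribes a single receptor gene, and in brain the arrays are taken here to be silent. The windows described here lie over 3 of these arrays in build mm9: 85200000 to 90000000 on chromosome 2, 109800000 to 115500000 on chromosome 7 and 37500000 to 40000000 on chromosome 9, or 13 Mb in all. Every peak summit of open chromatin in a window was taken, whatever its score, and neighbouring summits up to 250 bp apart, from whichever library, were merged into regions. This gave 226 regions from 401 summits, out of 82899 regions from 190846 summits in the whole series. They were compared with the rest of the same chromosomes, which held 13764 regions over 436.1 Mb between the first and the last summit.

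The summits come from FAIRE-seq, in which DNA that carries few nucleosomes is recovered from sonicated, fixed tissue, here dentate gyrus, the hippocampal field of the granule neurons. C57BL6 mice around 9 weeks old gave 2 libraries titled WT and 2 titled Mbd1 KO. MBD1 is a protein that binds methylated CpG, the methylated form of the dinucleotide CG, and is linked to gene silencing. The labels do not say how the gene was deleted, whether animals were pooled, or whether each library stands for its own mice, so the spread between libraries may be technical. For 2 libraries the genotype field contradicts the title: it gives WT 1 as Mbd1 KO and Mbd1 KO 2 as WT. Libraries are therefore named by title, and comparisons of groups are given under both groupings. The shortest list, of WT 1, held 38142 summits and the longest, of Mbd1 KO 1, held 56382, and read depth is not known from them. No expression values were used, so that the arrays are silent was taken from the label and not checked, and markers of the dentate gyrus could not be placed without mm9 gene positions.

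Gene names and promoter sequences were at hand only for the later build GRCm38.p6 (RefSeq), whose positions differ from mm9, so regions are named by mm9 position and none was assigned to a gene. The gene order in that table still shows what such arrays hold. Receptor genes (symbols beginning with Olfr) that had at most 25 other protein-coding genes between them were taken as 1 run. The longest run on chromosome 2 held 222 receptor genes, from Olfr987 to Olfr1274, and 3 other genes. That on chromosome 9 held 95, from Olfr160 to Olfr986, and also 3 others. The run on chromosome 7 differed, with 193 receptor genes from Olfr543 to Olfr519 and 55 other protein-coding genes among them. The 55 included 5 beta-globin genes, 13 genes of the Trim family of ubiquitin ligases, and an unbroken block of 21 genes between Olfr692 and Olfr693. Genes of that block include Ilk, which encodes a kinase that links integrins to the cytoskeleton. Others are Taf10, which encodes a subunit of the transcription factor TFIID, and Tpp1, which encodes a lysosomal peptidase. How widely the 21 genes are expressed was not examined. These 3 runs make up 510 of the 1110 protein-coding receptor genes in the table. A further 146 lie elsewhere on the same 3 chromosomes, so the rest of those chromosomes was not free of receptor genes.

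Receptor promoters of these runs, as listed, held few CG dinucleotides, the sequence whose methylated form MBD1 binds. The listed gene starts were not checked, so for some genes these bases may not lie before the start of transcription. In the 250 bases before the gene start, the 437 promoters listed for 435 of the 510 receptors had a median of 1 CG. The median was 6 over all 32851 promoters in the table. Of the receptor promoters 46.0% had none, against 7.87% of all promoters. This was not particular to these runs. Over the 948 promoters of all receptors in the table, which include these, the median was also 1, and 44.2% had none. The 18 promoters listed for 14 of the 21 genes of the unbroken block on chromosome 7 had a median of 12. Most other non-receptor genes of the runs were not so rich. The 51 promoters of all other genes of the chromosome 7 run had a median of 2, as had the 57 of the 3 runs. The sequences below are shown for the contrast between receptors and that block, with CG in capitals, 5′ to 3′ on the strand of the gene (RefSeq, GRCm38.p6). For each run it is the middle gene, in gene order, among the receptors with the median number of CG, and Ilk is the gene of the block with the most, 32.
Olfr152: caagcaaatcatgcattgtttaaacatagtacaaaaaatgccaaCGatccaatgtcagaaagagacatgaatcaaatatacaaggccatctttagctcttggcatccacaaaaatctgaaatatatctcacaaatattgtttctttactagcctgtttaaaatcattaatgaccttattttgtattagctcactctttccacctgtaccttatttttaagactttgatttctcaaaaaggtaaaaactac
Olfr657: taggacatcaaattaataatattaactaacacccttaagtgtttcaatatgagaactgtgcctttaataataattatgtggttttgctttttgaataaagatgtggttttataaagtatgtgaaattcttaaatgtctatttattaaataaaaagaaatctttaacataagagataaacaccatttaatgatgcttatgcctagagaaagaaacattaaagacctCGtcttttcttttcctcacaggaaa
Ilk: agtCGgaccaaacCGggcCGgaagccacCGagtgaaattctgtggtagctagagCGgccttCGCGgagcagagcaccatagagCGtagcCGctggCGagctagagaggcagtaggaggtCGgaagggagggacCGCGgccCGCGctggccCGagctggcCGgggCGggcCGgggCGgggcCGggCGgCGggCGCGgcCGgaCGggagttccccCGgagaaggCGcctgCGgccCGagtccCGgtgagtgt
Olfr926: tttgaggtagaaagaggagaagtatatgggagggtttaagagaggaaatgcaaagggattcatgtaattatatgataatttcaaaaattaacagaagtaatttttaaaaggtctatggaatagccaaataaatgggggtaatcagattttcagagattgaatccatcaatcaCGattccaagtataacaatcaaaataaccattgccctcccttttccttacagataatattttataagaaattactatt
Whether any of these promoters carried a summit was not determined here.

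Summits were sparser in the receptor windows than in the rest of their chromosomes in every library. WT 1 had 5.85 summits per Mb in the windows against 15.7 in the rest. WT 2 had 7.15 against 18.5, Mbd1 KO 1 had 11.4 against 21.8, and Mbd1 KO 2 had 6.46 against 20.02. The density in the windows was thus 0.373, 0.387, 0.523 and 0.323 of that in the rest, and the values of the windows and of the rest did not overlap. On the log2 scale the mean ratio was −1.34 ± 0.29 (SD, n = 4 libraries), or 2.53-fold lower, lower in 4 of 4 libraries (exact sign-flip permutation p = 0.13, two-sided, or 2 of 16 sign patterns, the fewest that 4 libraries allow). Mbd1 KO 1, the longest list, stood above the other 3 libraries in the windows. Densities are per Mb of full length, and no allowance was made for sequence where 50 bp reads cannot be placed uniquely. Its part in the lower density was not tested.

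**Figure D1:**
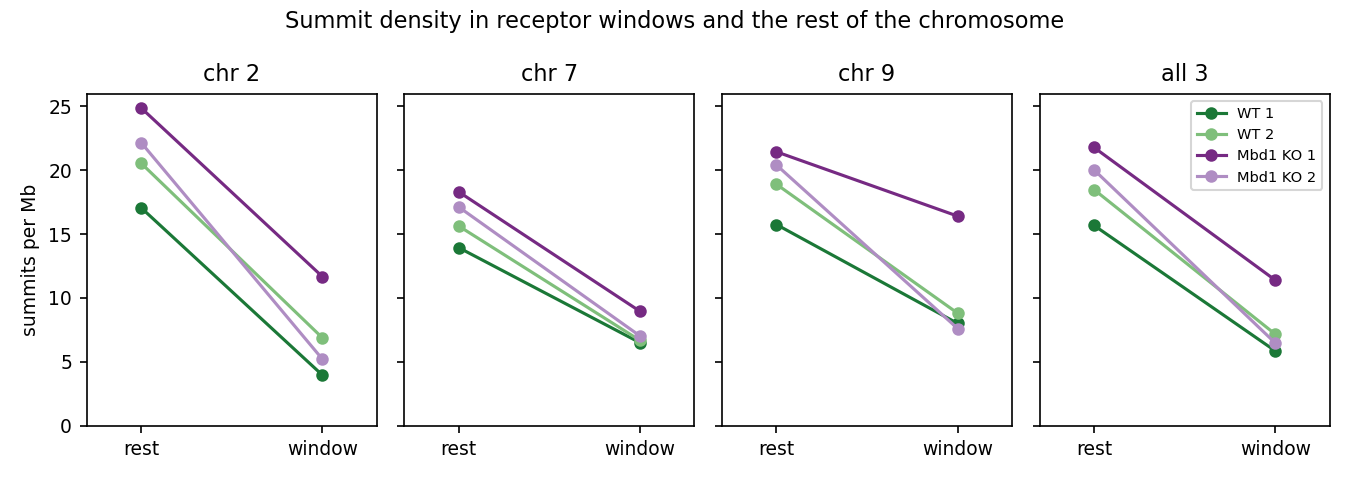
Summits per Mb (vertical axis) in the rest of each chromosome and in its receptor window, with 1 line per library, for chromosomes 2, 7 and 9 and for all 3 together. Every line falls from the rest to the window, and in the window on chromosome 9 Mbd1 KO 1, at 16.4 summits per Mb, lies above the other 3 libraries, at 7.60 to 8.80.

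The windows differed in how far the density was lowered, and their order depended on which summits were kept. The window on chromosome 2 held 3.96 (WT 1), 6.88 (WT 2), 11.7 (Mbd1 KO 1) and 5.21 (Mbd1 KO 2) summits per Mb, against 17.1 to 24.9 in the rest of that chromosome. The mean log2 ratio there was −1.72 ± 0.48. On chromosome 7 the window held 6.49, 6.67, 8.95 and 7.02 summits per Mb in the same order of libraries, against 13.9 to 18.3, a mean log2 ratio of −1.16 ± 0.12. On chromosome 9 it held 8, 8.80, 16.4 and 7.60 against 15.7 to 21.4, a mean log2 ratio of −0.97 ± 0.43 (SD, n = 4 libraries each, exact sign-flip permutation p = 0.13 for each window, the smallest possible). The 4 libraries were closest to each other on chromosome 7. They spread most on chromosome 9 in summits per Mb (SD 4.16, against 3.38 on chromosome 2) and most on chromosome 2 on the log2 scale. At scores of 10 or more the mean log2 ratios were −2.74, −1.57 and −2.38 on chromosomes 2, 7 and 9. With each list shortened to its 38142 strongest summits they were −2.37, −1.32 and −1.71. Chromosome 7, in place of chromosome 9, was then the least lowered.

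Regions found in all 4 libraries were missing from the windows far more than regions found in 1. Over the union of the 4 lists, regions of any kind numbered 17.4 per Mb in the windows and 31.6 in the rest, a 1.82-fold difference. Regions of all 4 libraries numbered 3 per Mb in the windows and 11.1 per Mb in the rest, a 3.70-fold difference. Regions found in 1 library only numbered 11.5 per Mb in the windows and 12.8 in the rest, a 1.12-fold difference. The share of regions called in all 4 libraries was accordingly 17.3% (39 of 226, exact 95% binomial interval 12.6% to 22.8%), beside 35.2% in the rest and 32.1% in the whole series. The share called in 1 only was 65.9% (149 of 226, interval 59.4% to 72.1%), beside 40.6% in the rest and 44.1% in the whole series. A further 20 regions were called in 3 libraries and 18 in 2. The intervals cover counting error alone, and regions are not replicates of a condition, so no test was made over them.

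By window, the shares set chromosome 7 apart from the other 2. On chromosome 2, 8 of 97 regions (8.25%) were called in all 4 libraries and 81 (83.5%) in 1 only. On chromosome 9 these were 7 of 60 (11.7%) and 38 (63.3%). On chromosome 7, 24 of 69 regions (34.8%) were called in all 4, close to the 38.1% of the rest of that chromosome, and 30 (43.5%) in 1 only. Per Mb, however, regions of all 4 were sparser in each window than in the rest of its chromosome, at 1.67 against 12.0 on chromosome 2, 4.21 against 9.88 on chromosome 7 and 2.80 against 11.3 on chromosome 9. Single-library regions numbered 16.9 per Mb on chromosome 2 and 15.2 on chromosome 9, beside 15.5 and 12.7 in the rest of those chromosomes, but 5.26 on chromosome 7, beside 9.65.

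**Figure D2:**
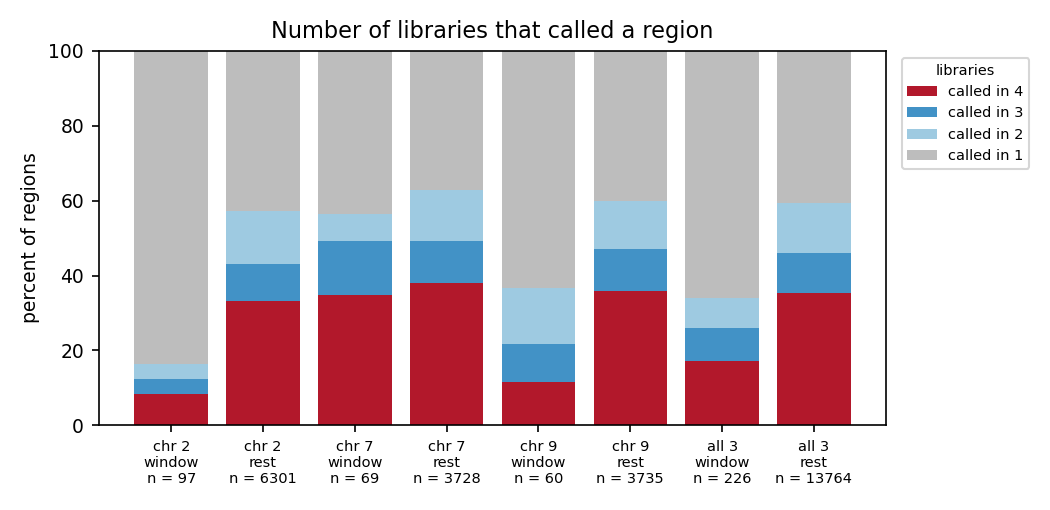
Percent of regions (vertical axis) called in 4, 3, 2 or 1 of the libraries, for each window and for the rest of its chromosome, with the number of regions under each bar. The part called in all 4 is 8.25% in the window on chromosome 2, 11.7% on chromosome 9 and 34.8% on chromosome 7, and between 33.2% and 38.1% in the rest.

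In the lists as deposited, single-library regions of the windows came mostly from Mbd1 KO 1. That library held 81 of the 149 (54.4%), WT 2 held 30 (20.1%), Mbd1 KO 2 held 21 (14.1%) and WT 1 held 17 (11.4%). In the rest of the chromosomes Mbd1 KO 1 held 39.6% of the single-library regions, WT 2 22.9%, Mbd1 KO 2 27.0% and WT 1 10.6%. Summits of Mbd1 KO 1 found in no other library numbered 6.23 per Mb in the windows and 5.08 in the rest, a ratio of 1.23. In WT 1 this ratio was 0.967, in WT 2 it was 0.787, and in Mbd1 KO 2 it was 0.468. In the lists as deposited, Mbd1 KO 1 was thus the 1 library in which such summits were denser in the windows than outside them. This order moved with list length, when each list was shortened to its 38142 strongest summits. WT 1, which loses none, then held 24 of 56 single-library regions, Mbd1 KO 1 held 13, WT 2 held 11 and Mbd1 KO 2 held 8. Such counts were not made in the rest at that length. For summits shared with 1 or 2 other libraries the ratio was below 0.5 in all 4, from 0.339 in Mbd1 KO 2 to 0.481 in WT 1.

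**Figure D3:**
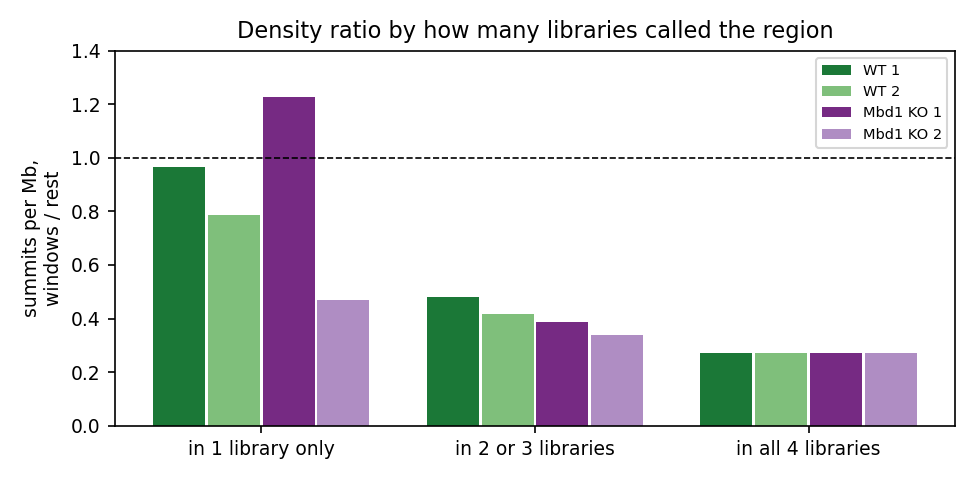
Ratio of summits per Mb in the windows to summits per Mb in the rest (vertical axis), by the number of libraries that called the region, 1 bar per library; the dashed line marks equal density. The bars for regions of all 4 libraries are alike, at 0.270, because all 4 libraries hold those regions by definition, while the bars for single-library regions range from 0.468 to 1.23.

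Single-library regions were weak in the windows, as they were elsewhere. Scores were ranked within each library, as a percentile in which 100 is the strongest summit. The 149 regions had a median percentile of 13.8, beside 17.2 in the rest, 109 of them (73.2%) ranked at or below percentile 25 of their library, beside 65.5% in the rest, and 6 above percentile 50. The strongest were at 111459480 on chromosome 7 (Mbd1 KO 1, percentile 60.4), at 37595009 on chromosome 9 (Mbd1 KO 1, 55.6) and at 86427983 on chromosome 2 (WT 2, 40.7). No single-library region of the windows ranked above percentile 80.

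Summits of the windows ranked low as a whole. The median percentile was 28.9 in the windows against 53.4 in the rest in WT 1 and 29.5 against 53.5 in WT 2. In Mbd1 KO 1 it was 28.1 against 54.5, and in Mbd1 KO 2 it was 37.0 against 52.0. The difference averaged −22.5 ± 5.1 percentile points and was negative in 4 of 4 libraries (SD, n = 4, exact sign-flip permutation p = 0.13, the smallest possible). At equal list length it was −12.4 (exact sign-flip permutation p = 0.25), with −24.5 in WT 1, −16.8 in WT 2, −8.27 in Mbd1 KO 1 and 0 in Mbd1 KO 2. In the full lists it was largest on chromosome 9 (−33.6 ± 3.2) and chromosome 2 (−27.2 ± 2.7) and smallest on chromosome 7 (−13.5 ± 4.5). Between 40.5% and 47.3% of the window summits ranked at or below percentile 25 of their library, against 20.7% to 22.9% of those in the rest. Above percentile 90 were 4 window summits of WT 1 (5.26%), 6 of WT 2 (6.45%), 7 of Mbd1 KO 1 (4.73%) and 7 of Mbd1 KO 2 (8.33%), against 11.7% to 12.2% of the summits in the rest.

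Strong summits, where the windows held them, recurred about as often as elsewhere. All 12, 15, 20 and 16 window summits above percentile 75 of WT 1, WT 2, Mbd1 KO 1 and Mbd1 KO 2 lay in regions of all 4 libraries, as did 97.5% to 98.6% of such summits in the rest. The 39 regions of all 4 libraries had a median lowest percentile of 58.4, as had the 4847 such regions in the rest, but the windows differed. The median was 67.6 on chromosome 2, beside 56.3 in the rest of that chromosome, 49.0 beside 61.0 on chromosome 7 and 34.3 beside 58.8 on chromosome 9. Above percentile 80 in every library were 7 of the 39 (17.9%), beside 25.2% in the rest. Between percentiles 50 and 75 the share of window summits in regions of all 4 was above that of the rest in WT 1 (87.5% against 85.1%), WT 2 (84.6% against 77.5%) and Mbd1 KO 2 (81.25% against 74.3%). It was below in Mbd1 KO 1 (55.0% against 63.5%). Between percentiles 25 and 50 this share was below that of the rest in 4 of 4 libraries. It was 46.2% (6 of 13) against 60.4% in WT 1 and 33.3% (8 of 24) against 40.4% in WT 2. In Mbd1 KO 1 it was 15.8% (6 of 38) against 21.9%, and in Mbd1 KO 2 22.2% (4 of 18) against 33.0%. At or below percentile 25, the share of window summits in regions of all 4 was 20.0% in WT 1 and 2.86% in Mbd1 KO 1, below the 33.1% and 5.09% of the rest, and 12.2% in WT 2 and 17.6% in Mbd1 KO 2, above the 10.9% and 8.76% of the rest.

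At scores of 10 or more the libraries were alike. The windows then held 28 summits in WT 1, 28 in WT 2, 32 in Mbd1 KO 1 and 34 in Mbd1 KO 2. Their density was 0.230, 0.228, 0.239 and 0.238 of that in the rest, a mean log2 ratio of −2.10. Mbd1 KO 1 no longer stood apart. Of the 41 regions left, 21 (51.2%) were called in all 4 libraries, beside 49.6% in the rest, and 9 (22.0%) in 1 only, beside 21.8%. The difference in median percentile, recomputed within the shortened lists, was 0.249 percentile points (exact sign-flip permutation p = 0.875). Above that score the windows therefore held fewer regions, at shares and ranks close to those of the rest. With read depth unknown, the same score may not mean the same signal in each library.

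The strongest regions of all 4 libraries lay on chromosome 7. The first, at 112959641 to 112959674, had percentiles of 99.3 (WT 1), 98.9 (WT 2), 99.0 (Mbd1 KO 1) and 98.9 (Mbd1 KO 2), with scores of 97.7, 72.2, 90.2 and 84.3. The second, at 112548669 to 112548820, had percentiles of 98.8, 98.7, 99.5 and 99.0 in the same order. The third, at 112788914 to 112788974, had 95.2, 90.3, 92.6 and 90.7. These 3 ranked above percentile 90 in every library. The fourth (112635787 to 112635857) and the fifth (111576547 to 111576555) had lowest percentiles of 88.8 and 88.3 and highest of 92.8 and 92.9. By title, both Mbd1 KO libraries ranked above both WT libraries at the second and the fourth, and the groups overlapped at the other 3. By the genotype field, both Mbd1 KO libraries ranked above both WT libraries at the first and the third, and the groups overlapped at the second, the fourth and the fifth.

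On chromosome 2 a single region was as strong, at 85266245 to 85266322, near the left edge of the window. Its percentiles were 93.7 in WT 1, 97.2 in WT 2, 96.4 in Mbd1 KO 1 and 96.8 in Mbd1 KO 2. The next, at 88196631 to 88196658, had 81.5, 81.0, 83.5 and 74.0. It lay 1825 kb to the right of the previous region called in every library. The others by rank were at 86371390 to 86371441, 85401490 to 85401514 and 85566084 to 85566116, with lowest percentiles of 71.4, 68.6 and 66.6.

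On chromosome 9 no region ranked above percentile 90 in every library. The first, at 37740253 to 37740260, had percentiles of 81.5 in WT 1, 90.6 in WT 2, 74.3 in Mbd1 KO 1 and 84.5 in Mbd1 KO 2. The second, at 39441680 to 39441724, had 79.4 and 72.8 in the WT libraries and 93.7 and 90.2 in the Mbd1 KO libraries. The third, at 39419717 to 39419751, had 70.3 and 70.1 against 80.9 and 85.6. At these last 2 both Mbd1 KO libraries ranked above both WT libraries by title. By the genotype field the groups overlapped at both, and 2 libraries against 2 cannot pass a test. The fourth (39316750 to 39316808) and the fifth (39365542 to 39365564) varied more, from 34.3 to 77.3 and from 31.6 to 72.3. At the fourth the high libraries were WT 2 and Mbd1 KO 2, which are the WT pair of the genotype field, and at the fifth they were the titled Mbd1 KO pair.

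Over all 39 regions of 4 libraries in the windows, both titled Mbd1 KO libraries ranked above both WT libraries at 14 (35.9%), beside 33.3% of such regions in the rest. The opposite order was seen at 1 (2.56%), beside 5.05%. By the genotype field the 2 Mbd1 KO libraries ranked higher at 9 (23.1%), beside 13.9%, and the 2 WT libraries at 4 (10.3%), beside 16.5%. A percentile also moves with list length, since a longer list with more weak summits lifts the percentile of any summit of given strength, and both titled Mbd1 KO lists were longer than both WT lists. The part of list length in these orders was not tested.

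**Figure D4:**
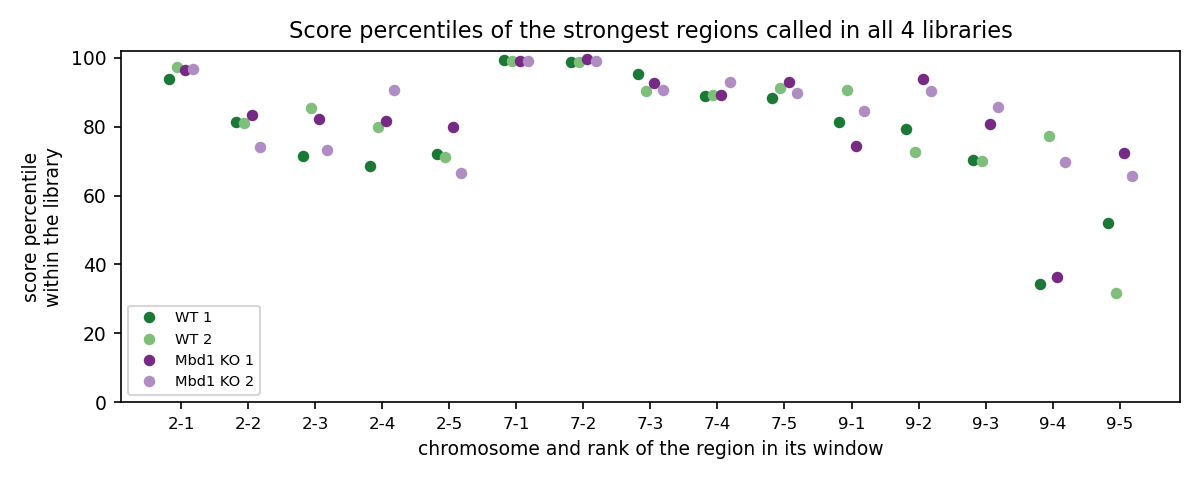
Score percentile within the library (vertical axis) of the 5 regions of each window that were called in all 4 libraries with the highest lowest percentile, 1 point per library, labelled by chromosome and rank. Points of the 5 regions on chromosome 7 all lie above 88, and those of the last 2 on chromosome 9 spread from 31.6 to 77.3.

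In the windows on chromosomes 7 and 9, most regions of all 4 libraries lay within a stretch of 1 Mb. The 1 Mb of the window on chromosome 7 that held most of them (112050001 to 113050000, found in steps of 250 kb after the positions had been seen) had 14 of the 24, beside 3 single-library regions. It held 19, 20, 21 and 18 summits in WT 1, WT 2, Mbd1 KO 1 and Mbd1 KO 2. The other 4.7 Mb of the window had 10 regions of all 4, or 2.13 per Mb, and 27 of 1 library. On chromosome 9 the same search found 6 of the 7 between 38750001 and 39750000, beside 21 single-library regions. On chromosome 2 it found 4 of the 8 in the first 1 Mb, 85200001 to 86200000. The rest of chromosomes 7, 9 and 2 held 9.88, 11.3 and 12.0 such regions per Mb. The search was not made in the rest, so whether such gathering is particular to the windows was not tested. Without the stretch on chromosome 7, the share called in all 4 over the 3 windows was 12.4% (25 of 202) in place of 17.3%, and the mean log2 density ratio was −1.56. Lower values followed from the choice, since the stretch was picked for holding the most regions of all 4. Whether this stretch corresponds to the block of other genes in the GRCm38 gene order was not tested, since no mm9 gene positions were used.

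**Figure D5:**
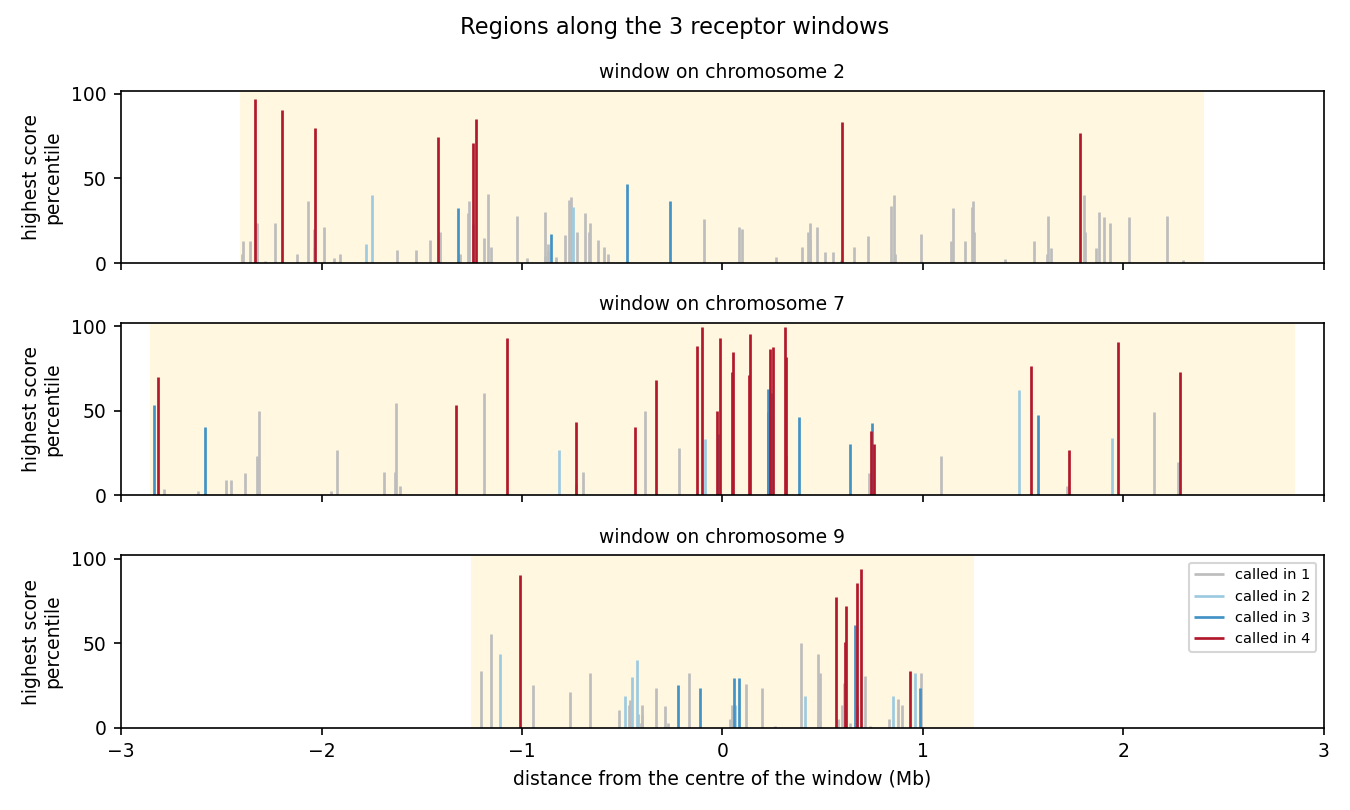
Regions along each window, by distance from the centre of the window in Mb (horizontal axis) and by the highest score percentile among the libraries that called the region (vertical axis); colour gives the number of libraries and the shaded band the extent of the window. Regions of all 4 libraries crowd near the centre on chromosome 7 and in the right part on chromosome 9, and on chromosome 2 low, single-library regions fill most of the window.

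Long stretches of the windows had no region of all 4 libraries. The longest ran for 1825 kb on chromosome 2 (86371442 to 88196630), for 1487 kb on chromosome 7 (109835883 to 111322627) and for 1576 kb on chromosome 9 (37740261 to 39316749). Elsewhere on those chromosomes the longest stretch between such regions was 1529 kb on chromosome 2, 7225 kb on chromosome 7 and 2024 kb on chromosome 9. Of bins of 100 kb, 85.4% on chromosome 2, 70.2% on chromosome 7 and 84.0% on chromosome 9 had none in the window, against 37.1%, 53.4% and 42.7% in the rest. Stretches with no region of any library were shorter: 219 kb on chromosome 2 (87121275 to 87339926), 568 kb on chromosome 7 (114931914 to 115500000) and 258 kb on chromosome 9 (39741727 to 40000000). The last 2 reached the right edge of their windows.

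Bins with many regions were not always bins with shared ones. The fullest 100 kb on chromosome 2 (86700001 to 86800000) held 7 regions, of which 6 were in 1 library and 0 in all 4. On chromosome 7 the fullest (112900001 to 113000000) held 5, of which 3 were in all 4. On chromosome 9 the stretch from 39300001 to 39400000 held 7, of which 3 were in all 4 and 4 in 1, and 1 other bin of that window also held 7.

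The study asked which open elements differ between mice with and without MBD1. By title, the windows held 0.199% of the summits of WT 1, 0.199% of WT 2, 0.262% of Mbd1 KO 1 and 0.169% of Mbd1 KO 2. The Mbd1 KO libraries lay on both sides of the WT libraries. The averages were 0.216 ± 0.066% for Mbd1 KO and 0.199 ± 6.87e-05% for WT (SD, n = 2 libraries each; two-sided exact permutation p = 1, where the smallest possible is 0.33). By the genotype field they were 0.231 ± 0.045% for Mbd1 KO and 0.184 ± 0.021% for WT (n = 2 each, exact permutation p = 0.667). The direction by title rested on Mbd1 KO 1: without it the difference was −0.0302 percentage points, beside 0.0165 with all libraries. With every list shortened to its 38142 strongest summits the shares became 0.199% and 0.152% in WT 1 and WT 2 and 0.149% and 0.134% in Mbd1 KO 1 and Mbd1 KO 2, a difference of −0.0341 percentage points (exact permutation p = 0.33).

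Few regions of the windows followed a titled group. The titled Mbd1 KO pair alone called 7 (3.10% of 226), beside 4.06% in the rest of the chromosomes and 4.07% in the whole series. The titled WT pair alone called 2 (0.885%), beside 0.857% and 0.975%. By the genotype field the Mbd1 KO pair alone called 3 (1.33%), beside 1.76% and 1.67%, and the WT pair alone called 4 (1.77%), beside 2.54% and 2.63%. These shares lie near or below those of the other regions. At equal list length the order by title turned, with 1 region of the Mbd1 KO pair and 6 of the WT pair among 114. Shares in the rest were not computed at that length, so whether the turn is particular to the windows was not tested.

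The 7 regions of the titled Mbd1 KO pair were weak. The first by the lower of its 2 percentiles was at 114127409 to 114127500 on chromosome 7, with 62.6 in Mbd1 KO 1 and 27.0 in Mbd1 KO 2, and no WT library had a summit within 61994 bp. Those on chromosome 2 were at 85560842 to 85560975 and 85821165 to 85821292, with lower percentiles of 18.6 and 3.98. Those on chromosome 9 were at 38265294 to 38265296, 39163990 to 39164015, 39710524 to 39710525 and 39602382 to 39602390, with lower percentiles from 6.51 to 9.64. The 2 regions of the titled WT pair were both on chromosome 7, at 112560579 to 112560637 (lower percentile 30.7) and 112965483 to 112965499 (17.2), with a summit of the Mbd1 KO libraries 11818 and 1170 bp away. None of the 9 was still called by both libraries of its pair when only summits with a score of at least 10 were kept. At the first region, on chromosome 7, the summit of Mbd1 KO 1 (score 11.6) passed that cut and that of Mbd1 KO 2 (6.40) did not.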

How the data were processed

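FAIRE-seq was read single-end (50 bp, per the labels' protocols) in 4 libraries. Per the submitters' processing notes the tools were Bowtie, SAMtools and MACS2 and the build mm9. Versions, thresholds and use of an input control were not stated there. The authors deposited 1 list of summits per library, each 1 base wide, with a score taken as the −log10 of a p or q value; which of them was not stated, and the lowest score is 1.32. Depth is unknown, so no interval on signal could be computed.

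Positions are 1-based. Summits within 250 bp were joined, and density used the length from the first to the last summit of a chromosome, assembly gaps included. Libraries were compared by exact permutation (sign flips for window against rest, group labels for titles). Named regions were, per window, the 5 strongest of all 4 libraries, the strongest of 1, and those of a titled pair. Windows, lists and rules were chosen with earlier results of these data known. Alternatives were joining at 100 or 1000 bp, a score of at least 10, equal list lengths, window edges moved in by 250 kb, a rest within 10 Mb, the genotype field and leaving out each library; the chromosome 7 stretch was left out as a choice made after seeing the data. Joining was tried on simulated regions spaced far wider than 250 bp and returned the known counts, so closer regions were not tried. The exact tests were checked only on small sets of made-up values. Python 3.11.15, numpy 2.4.6, pandas 2.3.3, scipy 1.17.1 and matplotlib 3.10.9 were used.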

Additional observations from a re-analysis of the deposited data

How the results depend on the processing

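The lower density in the windows kept its direction under every alternative tried. The order of the windows on chromosomes 7 and 9 turned at a score of at least 10 and at equal list length. The mean log2 ratio of summits per Mb over libraries reached −2.10 (score of at least 10) and ran from −1.24 to −1.47 with 1 library left out. For joined regions over the union of the lists, a different measure, the log2 ratio was −0.86. It was −0.84 with joining at 100 bp and −0.80 at 1000 bp. At a score of at least 10 the share called in all 4 libraries turned to 1.65 percentage points above the rest, the single-library share was 0.13 points above it, the percentile difference turned to 0.249, and the regions of the titled pairs numbered 0 and 0; the cause was not tested. At equal list length the percentile difference was −12.4 (exact sign-flip permutation p = 0.25), and the Mbd1 KO minus WT share turned to −0.0341 percentage points. WT 1 in place of Mbd1 KO 1 then held most single-library regions of the windows, and the titled pairs had 1 (Mbd1 KO) and 6 (WT) regions. For these 2 results the rest was not counted at that length. By the genotype field, in the full lists, the pairs had 3 (Mbd1 KO) and 4 (WT) regions. Without Mbd1 KO 1 the share difference turned to −0.0302 percentage points; with 1 library left out it reached 0.0632. In those settings the single-library share exceeded that of the rest by 15.5 (without Mbd1 KO 1) to 25.4 points, the Mbd1 KO count ran from 11 to 88 and the WT count from 6 to 33, because fewer libraries leave fewer conditions to meet. Without the chromosome 7 stretch, chosen after seeing the data, the share called in all 4 was 22.8 points below the rest (−22.8). The single-library share was 31.7 points above it, and the WT count 0. The stretch was picked for its regions of all 4, so this fall in their share followed from the choice. With a replicate block the share difference was 0.0165 percentage points (exact sign-flip permutation p = 1, where 2 pairs allow no less than 0.5). No label explains the replicate numbers, and deviations of same-numbered libraries correlated at 0.013 over 26592 regions. The exact tests cannot pass 0.05 with these numbers of libraries, and list lengths could not be adjusted to read depth.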

Other observations

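Pairs of libraries shared less of their regions in the receptor windows than in the rest of the chromosomes. As a Jaccard index (regions in both libraries over regions in at least 1 of them) this was 0.444 for WT 1 with WT 2 in the windows and 0.569 in the rest. It was 0.311 against 0.547 for Mbd1 KO 1 with Mbd1 KO 2. The 3 pairs that include Mbd1 KO 1 had the lowest values in the windows, from 0.282 to 0.311, and the other 3 ranged from 0.416 to 0.444. The same pairs were lowest in the rest, from 0.529 to 0.547, and the other 3 ranged there from 0.566 to 0.575. Summits of the regions called in all 4 libraries lay close together, with a median of 46 bp between the outermost summits in the windows and 39 bp in the rest.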
